A study of Mus musculus with 36 samples.

Results

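Intestinal organoids grown in complete media with added Wnt5a received either an antibody against the receptor Ptk7 (Wnt5a + anti-Ptk7) or control immunoglobulin (Wnt5a + IgG), and the comparison of these treatments is described here. The libraries were chosen by their treatment label, which gave 6 libraries of each treatment, or 12 of the 36 libraries of the series. Organoids are epithelial structures grown from isolated crypts, here from the jejunum of C57BL/6 mice, and they hold stem cells, Paneth cells and differentiated cells without the surrounding connective tissue. They were cultured in Intesticult, which the labels call complete media, and were treated for 2 days. Both groups held Wnt5a, so the antibody is the labelled difference between them, and its control was an IgG rather than untreated cells. Of the other 24 libraries, 6 each held complete media + IgG, QCM + IgG, SCM + IgG and SCM + anti-Ptk7, where QCM stands for medium that quiescent fibroblasts had conditioned and SCM for medium from senescent fibroblasts. The SCM libraries give a second test of the antibody that shares no library with the first. Complete media with anti-Ptk7 was not analysed here, so what the antibody does without Wnt5a or SCM was not tested.

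Ptk7 is a transmembrane protein of the tyrosine kinase family whose kinase domain is inactive. It binds Wnt ligands together with Frizzled and Ror receptors and is best known for planar cell polarity, the orientation of cells within the plane of an epithelium. Wnt5a is the typical ligand of this noncanonical branch, which works through calcium, small GTPases and the cytoskeleton, and which can also raise the activity of YAP/TAZ, coactivators of the TEAD transcription factors. In the intestine YAP/TAZ activity accompanies repair, when the epithelium takes on genes of the fetal gut such as Ly6a. The antibody used in the study is directed against the N-terminal part of Ptk7, outside the cell.

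The 12 libraries held between 11220233 and 21029769 counts, and a count was detected for 18094 to 20474 genes in the Wnt5a + IgG libraries and for 19087 to 20350 in the Wnt5a + anti-Ptk7 libraries. All 10 epithelial markers, such as Epcam and Vil1, were present in every library, with a summed level of 16950 to 29676 CPM (counts scaled to a common library size) with IgG and 15928 to 34499.5 CPM with anti-Ptk7. Of 12 fibroblast and smooth muscle markers only 1 reached a testable level, and their sum was 0.281 to 3.34 CPM with IgG and 2.44 to 4.74 CPM with anti-Ptk7. Col3a1, Dcn and Thy1 were at 0 in all 12 libraries. The sum of 12 immune markers was 14.5 to 20.6 CPM with IgG and 16.2 to 20.7 CPM with anti-Ptk7, most of it from Csf1r, while Ptprc was at 0 in every anti-Ptk7 library and held 4 counts in all. Endothelial markers summed to 0 to 1.51 CPM and 0.846 to 1.78 CPM, and neural markers to 1.23 to 2.00 CPM and 1.98 to 4.57 CPM, in the same order. The part of these traces in the results was not tested. The labels do not say whether the 6 replicates came from separate cultures or animals, so p-values measure the spread between libraries. That spread was estimated over all 36 libraries of the series within their 6 conditions, not over these 12 alone. The study's statistics section says that individual values stand for a mouse unless stated otherwise, without saying so of these libraries in particular.

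The mRNA of the target itself did not pass the test. Ptk7 (ENSMUSG00000023972, chromosome 17, 46564471 to 46629504) was between 16.7 and 28.4 CPM, with a median of 18.8, with IgG and between 16.2 and 25.3 CPM, with a median of 17.5, with anti-Ptk7, and the groups overlapped. The log2 fold change was -0.05 ± 0.25 (SE, n = 6 libraries a group, adjusted p = 0.962), which is no check of the antibody, since an antibody acts on the protein. Among 27 tested genes of Wnt receptors and planar polarity, none passed the test in either direction and the median log2 fold change was 0.09. Ror2, a Wnt5a receptor, had a log2 fold change of -0.03, Vangl2, a core planar polarity protein, -0.06, and Fzd5, a Frizzled receptor of the crypt, -0.35 ± 0.11 (adjusted p = 0.0657).

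Anti-Ptk7 changed the level of 137 of 15497 genes tested. By edgeR's quasi-likelihood test, with p adjusted over all genes by the Benjamini-Hochberg method, 70 genes rose (0.452% of those tested) and 67 fell (0.432%) with a change above 1.5-fold and an adjusted p below 0.05. The counts rest on the test used: 106 rose and 90 fell with DESeq2, 45 and 56 without a filter on low counts, and 1 and 1 with glmTreat, which tests against the 1.5-fold change itself. At an unadjusted p under 0.05 and any fold change, 7.11% of all genes tested were higher and 7.94% lower. The median log2 fold change of all genes was 0.01, and those of the raised and lowered genes were 0.91 and -0.86. In 36 of the raised and 39 of the lowered genes the 6 libraries of one treatment did not overlap with the 6 of the other. Over all genes tested 0.949% were higher and 1.43% lower without overlap, and nothing is read from the count among the called genes, which the same libraries chose. Protein-coding genes made up 60 of the raised and 60 of the lowered genes. The calls were sensitive to single libraries: 49 genes, 24 raised and 25 lowered, kept their call without each of the 12 libraries in turn. Some calls were lost only because the change fell under 1.5-fold. The adjusted p of Stk38, Ano9, Lyz1, Ces2a and Hist1h4d, described below, stayed under 0.05 in every such fit. The count was lowest without Wnt5a + anti-Ptk7 replicate 5, at 40 raised and 41 lowered genes. Names, positions and gene types below are from GENCODE on GRCm38, and functions were attached to the called genes after the calls were known.

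**Figure D1:**
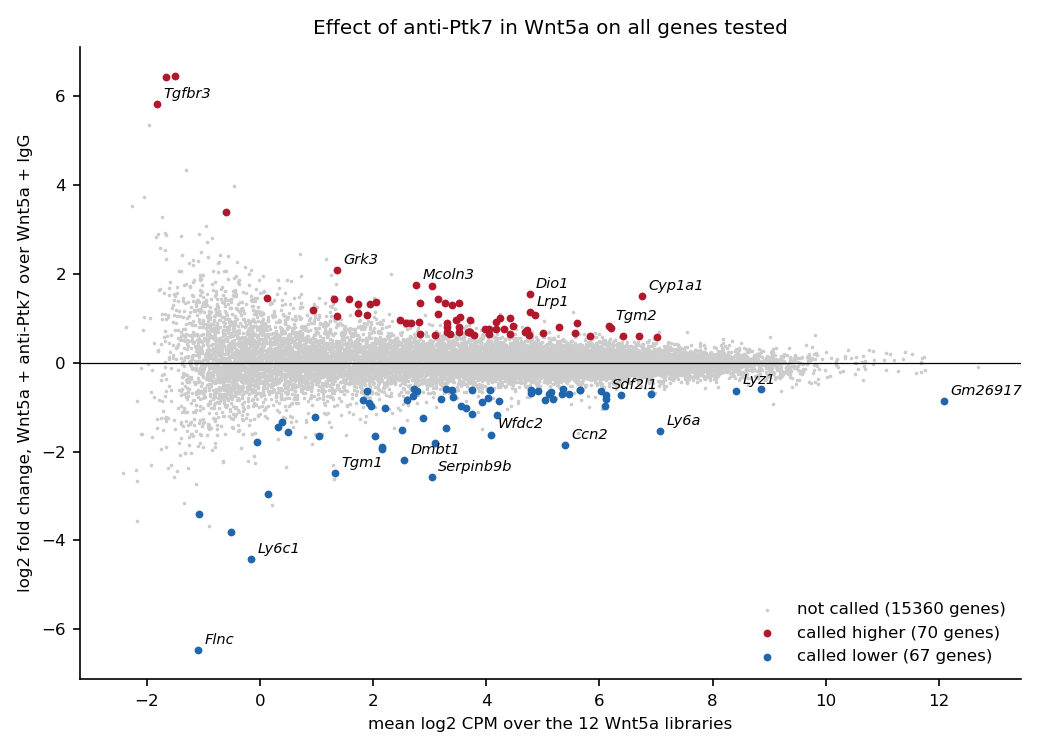
Each point is a gene, with its mean log2 CPM over the 12 Wnt5a libraries on the horizontal axis and the log2 fold change of Wnt5a + anti-Ptk7 over Wnt5a + IgG on the vertical axis. The 70 raised genes are red, the 67 lowered genes blue and the others grey, and the largest fitted changes belong to genes with mean levels near or under 1 CPM.

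Ly6a and Ly6c1, genes for surface proteins of the Ly6 family, were among the genes that fell most, and Ly6a is a marker of the fetal-like repair epithelium. Ly6a (Sca-1; chromosome 15, 74994877 to 74998031) was between 205 and 326 CPM, with a median of 214, with IgG and between 64.8 and 129 CPM, with a median of 73, with anti-Ptk7. All 6 antibody libraries lay below all 6 IgG libraries, and the log2 fold change was -1.55 ± 0.30 (SE, adjusted p = 0.00263). The level in complete media was between 56.1 and 228 CPM, with a median of 115, which overlapped with both groups. Ly6c1, a neighbour on the same chromosome (chromosome 15, 75044018 to 75048830), was 1.31 to 5.205 CPM (median 3.23) with IgG and 0 to 0.361 CPM (median 0.149) with anti-Ptk7, where 6 libraries together held 11 counts against 265 with IgG. Its log2 fold change was -4.42 ± 0.66 (adjusted p = 0.000151), again without overlap. Not all of the family fell: Ly6e had a median of 248 CPM with IgG and 234 CPM with anti-Ptk7. Its log2 fold change was -0.11 ± 0.11 (adjusted p = 0.71). Genes of the Ly6 family are close copies of each other, so reads could have been split between them. Ly6a was the only called member of a list of 16 tested fetal and revival genes, whose median log2 fold change was -0.26 and of which 3 were lower and 0 higher at an unadjusted p under 0.05, where 7.94% of all genes tested were lower. As these are bulk RNA samples, fewer cells of a kind and less RNA per cell cannot be told apart, here or in the groups that follow.

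Tgm1, Lor and Crct1, genes of the cornified envelope, the cross-linked protein shell that squamous epithelia build and the gut normally does not, fell. Tgm1 (chromosome 14, 55700009 to 55713926), the transglutaminase that cross-links the envelope, was between 2.78 and 9.54 CPM, with a median of 5.85, with IgG and between 0.25 and 1.98 CPM, with a median of 1.11, with anti-Ptk7. The ranges were separate and the log2 fold change was -2.48 ± 0.61 (adjusted p = 0.019), a call that was lost without Wnt5a + anti-Ptk7 replicate 5 (adjusted p = 0.0593). Lor, loricrin, a main envelope protein (chromosome 3, 92080271 to 92083142), was 6.41 to 15.7 CPM (median 9.43) with IgG and 2.31 to 5.503 CPM (median 3.19) with anti-Ptk7, with a log2 fold change of -1.53 ± 0.42 (adjusted p = 0.0393). Its call was lost without Wnt5a + IgG replicate 1, 2, 4 or 6 or Wnt5a + anti-Ptk7 replicate 2, 3, 4, 5 or 6 (adjusted p up to 0.0903). Crct1, a cysteine-rich protein encoded in the same chromosome 3 cluster as Lor, went from 0.433 to 1.33 CPM (median 1.002) to 0 to 0.206 CPM (median 0.039), a log2 fold change of -3.40 ± 0.80 (adjusted p = 0.0145) that kept its call without each library. In the list of squamous genes and keratins, of 28 tested members 2 fell (Lor and Tgm1), 2 rose, and the median was -0.11. The risers were Tgm2, the broadly expressed tissue transglutaminase (0.82 ± 0.14, adjusted p = 0.00117), and Cst6, an inhibitor of cysteine proteases (1.10 ± 0.20, adjusted p = 0.00162).

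A 67-base stretch before the start of Lor is shown because its promoter is 1 of the 3 promoters of lowered genes with an AP-1 site, beside those of 2200002J24Rik and Tspan4. The capitals mark TGANTCA, the site of AP-1, a factor that drives many squamous genes. The stretch lies at chr3:92083154-92083220 on the minus strand of GRCm38 (RefSeq), with the site 48 to 42 bases before the start.
Lor: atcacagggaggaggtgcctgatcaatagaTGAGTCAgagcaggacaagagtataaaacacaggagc

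Promoters from 250 bases before to 50 after the start were found in RefSeq's table for 52 of the raised, 43 of the lowered and 10482 of all tested genes, and some genes had several. TGANTCA, on either strand, was in 9 of 64 promoters of raised genes (14.1%), 3 of 51 of lowered genes (5.88%) and 5.33% of all. The raised genes with the site were Tnfsf13b, Tmem37, Tfpi2, Ampd3, Parp16, Plpp7, AA467197 and 2010003K11Rik. GGAATG, the TEAD site, was in 10.9% of raised, 11.8% of lowered and 12.5% of all promoters. A match of letters is a description, not evidence that a factor binds.

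Serine protease inhibitors and secreted proteases made up the next group of lowered genes. Serpinb9b (chromosome 13, 33027416 to 33041884), an intracellular serpin of the granzyme inhibitor family, was between 12.9 and 54.7 CPM, with a median of 17.9, with IgG and between 1.303 and 7.94 CPM, with a median of 3.34, with anti-Ptk7. The log2 fold change was -2.58 ± 0.57 (adjusted p = 0.00945) with no overlap. Wnt5a + IgG replicate 1 was the highest library, and without it the fold remained called. Serpinb9b has close copies in its cluster. Wfdc2 (chromosome 2, 164562413 to 164568510), a secreted antiprotease of the mucosa, was between 20.3 and 47.6 CPM, with a median of 29, with IgG and between 6.17 and 14.6 CPM, with a median of 9.502, with anti-Ptk7, without overlap, and its log2 fold change was -1.62 ± 0.37 (adjusted p = 0.0122). Plat, tissue plasminogen activator, had 23.2 to 41.7 CPM (median 26.8) with IgG and 6.85 to 23.9 CPM (median 11.3) with anti-Ptk7, with overlap and a log2 fold change of -1.18 ± 0.27 (adjusted p = 0.0131). Timp2, an inhibitor of metalloproteinases (-1.15 ± 0.28, adjusted p = 0.019), Pcsk6, a proprotein convertase (-0.98 ± 0.24, adjusted p = 0.0202), and Hgfac, which activates hepatocyte growth factor (-0.69 ± 0.19, adjusted p = 0.0378), also fell, and lost their calls without 3, 2 and 7 of the 12 libraries. Of 23 tested serpins, serine proteases and inhibitors of the list, 3 fell (Serpinb9b, Wfdc2 and Plat) and 0 rose, with a median log2 fold change of -0.12. Protease genes that rose were Cst6, Tfpi2, a Kunitz-type inhibitor (0.69 ± 0.19, adjusted p = 0.046), and Adam15, a membrane metalloproteinase (0.82 ± 0.21, adjusted p = 0.0279). The calls of Tfpi2 and Adam15 were lost without 8 and 6 libraries.

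Ccn2 and Vgll3, a YAP/TAZ target and a TEAD cofactor grouped after the calls were known, fell with anti-Ptk7 and had lower medians in complete media than with Wnt5a + IgG. Ccn2 (connective tissue growth factor; chromosome 10, 24595442 to 24598683), a matricellular protein and a standard YAP/TAZ target, was between 43.6 and 192 CPM, with a median of 69.8, with IgG, between 13.4 and 56.3 CPM, with a median of 19.1, with anti-Ptk7 and 1.75 to 22.2 CPM (median 8.57) in complete media. The Wnt5a groups overlapped, the log2 fold change was -1.86 ± 0.49 (adjusted p = 0.0306), and the call was lost without Wnt5a + IgG replicate 1 or 5 or Wnt5a + anti-Ptk7 replicate 2, 3, 4, 5 or 6 (adjusted p up to 0.101). Gm15270, a non-coding transcript that overlaps Ccn2 on the opposite strand, had a log2 fold change of -1.81 ± 0.50 (adjusted p = 0.0404), and without a stated strand in the counting its reads cannot be told from those of Ccn2. Its call was lost without 7 libraries. Vgll3 (chromosome 16, 65815257 to 65866368), a cofactor that binds TEAD, was between 4.82 and 11.1 CPM, with a median of 7.105, with IgG and between 0.989 and 3.75 CPM, with a median of 2.28, with anti-Ptk7, beside 0.0834 to 3.25 CPM (median 1.91) in complete media. The ranges of the Wnt5a groups did not overlap, the log2 fold change was -1.65 ± 0.40 (adjusted p = 0.0177), and the call was lost without Wnt5a + anti-Ptk7 replicate 5 (adjusted p = 0.059). Ccn2 was the only called member among 22 tested YAP/TAZ and TEAD targets, whose median was -0.16, and 3 were lower and 1 higher at an unadjusted p under 0.05 (all genes tested, 7.94% and 7.11%). Ccn1, the closest relative of Ccn2, had a log2 fold change of -0.19 ± 0.26 (adjusted p = 0.811), and Amotl2 had -0.52 ± 0.23 (adjusted p = 0.275). Both tests share the Wnt5a + IgG libraries, and Wnt5a against complete media gave a log2 fold change of 3.21 for Ccn2 and 2.06 for Vgll3.

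The 66 bases around the TEAD site of Vgll3, at chr16:65815096-65815161 on the plus strand (GRCm38, RefSeq), are shown because it is the TEAD cofactor of this group. CATTCC in capitals is the reverse complement of GGAATG, 63 to 58 bases before the start.
Vgll3: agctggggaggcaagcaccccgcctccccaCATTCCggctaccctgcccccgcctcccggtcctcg

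Antimicrobial and mucosal defense genes moved in both directions. Dmbt1 (chromosome 7, 131032053 to 131121630), a scavenger-receptor glycoprotein that binds bacteria, was between 7.72 and 22.3 CPM, with a median of 12.8, with IgG and between 0.563 and 4.84 CPM, with a median of 3.196, with anti-Ptk7, with no overlap and a log2 fold change of -2.20 ± 0.47 (adjusted p = 0.00795). The antimicrobial lectin Reg3b (-1.02 ± 0.29, adjusted p = 0.0496) and lysozyme Lyz1 of Paneth cells (-0.63 ± 0.12, adjusted p = 0.00374) were lower, and lost their calls without 9 and 4 of the 12 libraries. Lyz1 has a close copy in Lyz2. Muc4, a membrane mucin, was 2.14 to 9.35 CPM (median 6.12) with IgG and 7.104 to 36.5 CPM (median 11.2) with anti-Ptk7, and rose by 1.42 ± 0.39 (adjusted p = 0.0407) on the log2 scale, a call lost without 7 libraries. Among 13 tested genes of inducible defense 1 rose and 2 fell, with a median of 0.14. Of 14 tested Paneth cell genes only Lyz1 was called, the median was -0.15, and 6 were lower and 3 higher at an unadjusted p under 0.05, against 7.94% and 7.11% of all genes tested.

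Several lowered genes take part in digestion and uptake by enterocytes. Alpi, intestinal alkaline phosphatase of the brush border, was 84.6 to 141 CPM (median 114) with IgG and 43.4 to 92.8 CPM (median 62.3) with anti-Ptk7, a log2 fold change of -0.72 ± 0.16 (adjusted p = 0.0104). Akp3, a close copy of Alpi, had -0.86 ± 0.21 (adjusted p = 0.0189). Ada, adenosine deaminase, which is abundant in villus tips, was 28 to 61.1 CPM (median 43.1) with IgG and 22.4 to 32.5 CPM (median 23.4) with anti-Ptk7, a log2 fold change of -0.85 ± 0.18 (adjusted p = 0.006). Slc5a4b, of the sodium-glucose transporter family, had a log2 fold change of -1.48 ± 0.33 (adjusted p = 0.00945) and Slc6a20a, a proline and imino acid transporter, -0.98 ± 0.24 (adjusted p = 0.02). The carboxylesterases Ces2a (-0.60 ± 0.15, adjusted p = 0.0178) and Ces2g (-0.72 ± 0.15, adjusted p = 0.00703), which hydrolyse esters and drugs and are close copies, were lower as well. The calls of Akp3, Slc6a20a and Ces2a were lost without 2, 2 and 4 libraries. Of 41 tested enterocyte genes of the list 2 fell (Alpi and Ada), 0 rose, and the median was -0.04.

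Cck and Gip, hormone genes of enteroendocrine cells, also fell. Cck, cholecystokinin, which I cells release to contract the gallbladder, was between 84.9 and 109 CPM, with a median of 91.7, with IgG and between 35.7 and 64.6 CPM, with a median of 54.6, with anti-Ptk7. No library overlapped, and the log2 fold change was -0.83 ± 0.13 (adjusted p = 0.000155), a call kept without each library. Gip, the incretin of K cells, was 26.4 to 65.8 CPM (median 51.6) and 19.9 to 42.2 CPM (median 23.8), with overlap and a log2 fold change of -0.83 ± 0.21 (adjusted p = 0.0201), lost without 3 libraries. These were the 2 called genes among 24 tested enteroendocrine genes, whose median was 0.12, above that of all genes. At an unadjusted p under 0.05, 5 of the list were lower and 1 higher (all genes tested, 7.94% and 7.11%). In SCM the antibody lowered 3 of the list and raised 0, and the median was -0.14.

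**Figure D2:**
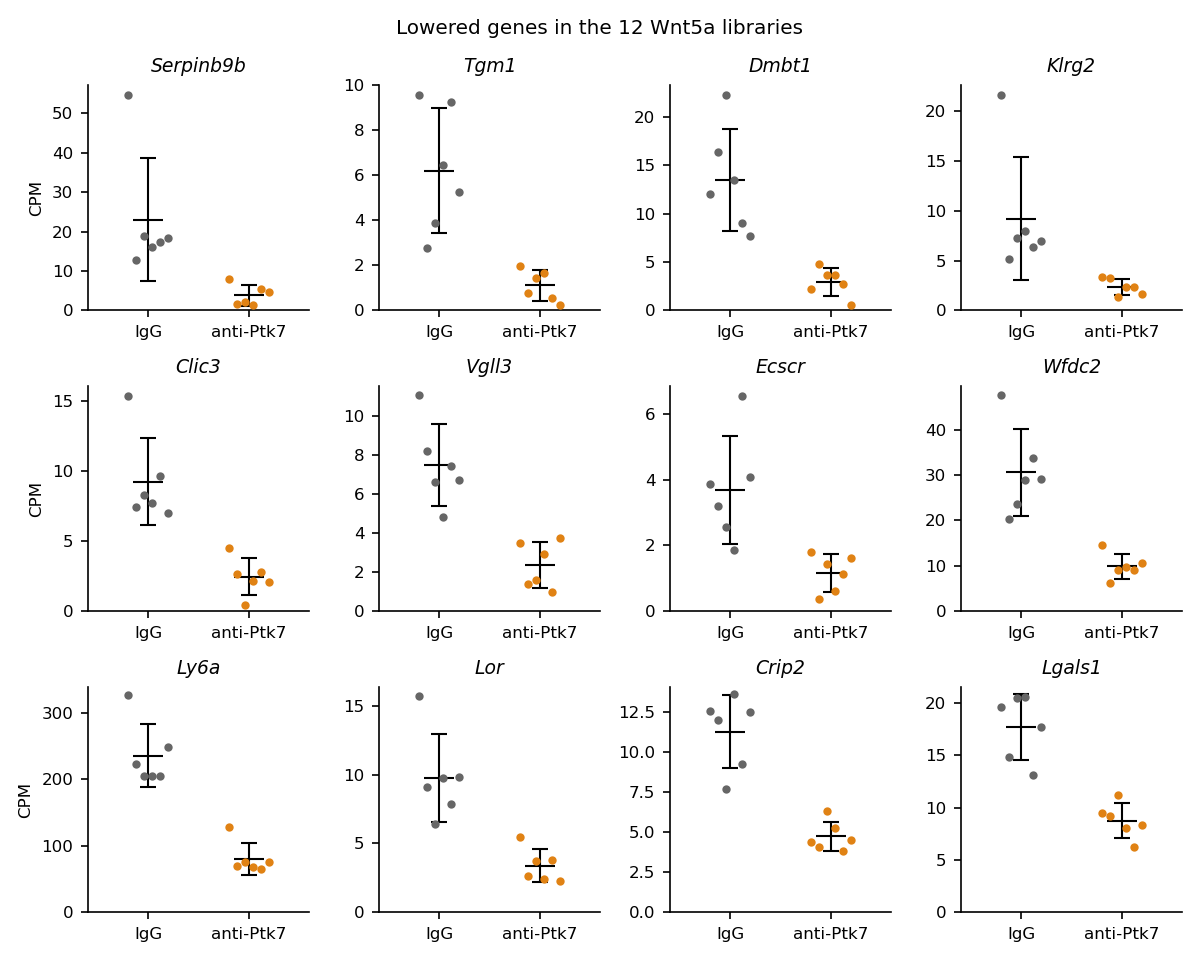
CPM in each of the 12 Wnt5a libraries (points, in order of replicate number from left to right) with the mean and SD of 6 libraries, for the 12 protein-coding lowered genes with the largest change among those whose groups did not overlap and whose mean log2 CPM was over 1. Wnt5a + IgG replicate 1, the leftmost grey point, is the highest library for Serpinb9b, Tgm1, Klrg2, Clic3, Vgll3, Wfdc2, Ly6a and Lor, and each axis starts at 0.

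The remaining lowered genes with separate groups have unlike roles. Klrg2, a lectin-like membrane protein, was between 5.19 and 21.7 CPM, with a median of 7.09, with IgG and between 1.35 and 3.34 CPM, with a median of 2.33, with anti-Ptk7, and its log2 fold change was -1.95 ± 0.35 (adjusted p = 0.00132). Lgals1, galectin-1, a secreted lectin, was 13.1 to 20.6 CPM (median 18.6) and 6.22 to 11.2 CPM (median 8.76), a log2 fold change of -1.02 ± 0.19 (adjusted p = 0.00186). Crip2, a LIM-domain protein, was 7.72 to 13.6 CPM (median 12.2) and 3.82 to 6.34 CPM (median 4.46), a log2 fold change of -1.25 ± 0.26 (adjusted p = 0.00598). These genes kept their calls without each library. Clic3, of the chloride intracellular channel family, was 7.02 to 15.3 CPM (median 8.01) and 0.423 to 4.51 CPM (median 2.42), a log2 fold change of -1.91 ± 0.51 (adjusted p = 0.0348), and was lost without Wnt5a + IgG replicate 1, 3, 4 or 5 or Wnt5a + anti-Ptk7 replicate 2, 3, 4, 5 or 6 (adjusted p up to 0.079). Ecscr, a membrane protein named for endothelial cells, was 1.85 to 6.55 CPM (median 3.53) and 0.39 to 1.804 CPM (median 1.28), with -1.65 ± 0.42 (adjusted p = 0.0231), and was lost without Wnt5a + IgG replicate 5 or Wnt5a + anti-Ptk7 replicate 2, 4 or 5 (adjusted p up to 0.0722). Cryab, a small heat shock protein, held 204 counts in the 6 IgG libraries and 13 in the 6 anti-Ptk7 libraries, a log2 fold change of -3.81 ± 0.73 (adjusted p = 0.00268). Flnc, a muscle-type filamin, held 149 counts with IgG, of which 1 library held none, and 1 with anti-Ptk7, a ratio of 136 in counts per library size with an exact 95% interval from 24.1 to 5423 that covers counting error only. Its call was lost without 1 library.

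Genes for protein folding in the endoplasmic reticulum and for amino acid supply fell together by small amounts. This program, the unfolded protein response and the integrated stress response, raises chaperones and amino acid enzymes when folding demand or amino acid shortage grows. Of 26 tested genes of the list, 14 were lower and 0 higher at an adjusted p under 0.05 when no fold cutoff was set, against 1.52% lower and 1.05% higher of all genes tested. The median log2 fold change of the list was -0.35, and 19 members were lower and 0 higher at an unadjusted p under 0.05, against 7.94% and 7.11% of all genes tested. The cutoff of 1.5-fold was passed by 2 members. Sdf2l1, a cochaperone of the endoplasmic reticulum, was between 73.3 and 104 CPM, with a median of 88.1, with IgG and between 44.1 and 62.2 CPM, with a median of 54.5, with anti-Ptk7, with no overlap and a log2 fold change of -0.73 ± 0.10 (adjusted p = 3.14e-05). Chac1, which degrades glutathione and is induced by ATF4, was 15.5 to 25.2 CPM (median 21.1) and 7.57 to 14.4 CPM (median 11), again separate, with -0.88 ± 0.19 (adjusted p = 0.00683). The number lower stayed between 13 and 15 without each of the 12 libraries and was 9 when only the 12 Wnt5a libraries were fitted.

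The chaperones and folding enzymes of the list changed by less than the cutoff. Hspa5 (BiP), the main chaperone of the endoplasmic reticulum, was between 1038 and 1306 CPM, with a median of 1240.0, with IgG and between 879 and 1061 CPM, with a median of 1001, with anti-Ptk7, a log2 fold change of -0.31 ± 0.06 (adjusted p = 0.00131). Hyou1, which exchanges nucleotide on BiP, had -0.57 ± 0.11 (adjusted p = 0.00253), Hsp90b1, the chaperone GRP94, -0.48 ± 0.10 (adjusted p = 0.00643), and Manf, a secreted stress protein, -0.48 ± 0.08 (adjusted p = 0.00048). The calcium-binding chaperone Calr had -0.43 ± 0.06 (adjusted p = 0.000151), the endoplasmic reticulum protein Creld2 -0.40 ± 0.08 (adjusted p = 0.00631), the cochaperone Dnajc3 -0.28 ± 0.06 (adjusted p = 0.00798), and the disulfide isomerases Pdia6 and Pdia4 -0.38 ± 0.07 (adjusted p = 0.00116) and -0.31 ± 0.07 (adjusted p = 0.0179). Pdia5, an isomerase outside the list, was called with -0.63 ± 0.17 (adjusted p = 0.0396), but lost the call without 8 libraries. The enzymes of serine and asparagine synthesis were lower too, with -0.53 ± 0.08 (adjusted p = 0.000406) for Psat1, -0.49 ± 0.11 (adjusted p = 0.0104) for Phgdh and -0.39 ± 0.07 (adjusted p = 0.00121) for Asns. Slc7a5, which imports large neutral amino acids and is outside the list, was 142 to 178 CPM (median 154) with IgG and 77.4 to 112 CPM (median 95.6) with anti-Ptk7, with no overlap, and its log2 fold change was -0.72 ± 0.11 (adjusted p = 0.000151). The transcription factors at the head of the program did not pass the test: Atf4 had -0.26 ± 0.10 (adjusted p = 0.154), Xbp1 -0.21 ± 0.07 (adjusted p = 0.121) and Ddit3 0.24 ± 0.16 (adjusted p = 0.53). Parp16, a protein of the endoplasmic reticulum membrane, moved the other way and rose by 0.65 ± 0.17 (adjusted p = 0.0227) on the log2 scale, a call lost without 5 libraries.

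**Figure D3:**
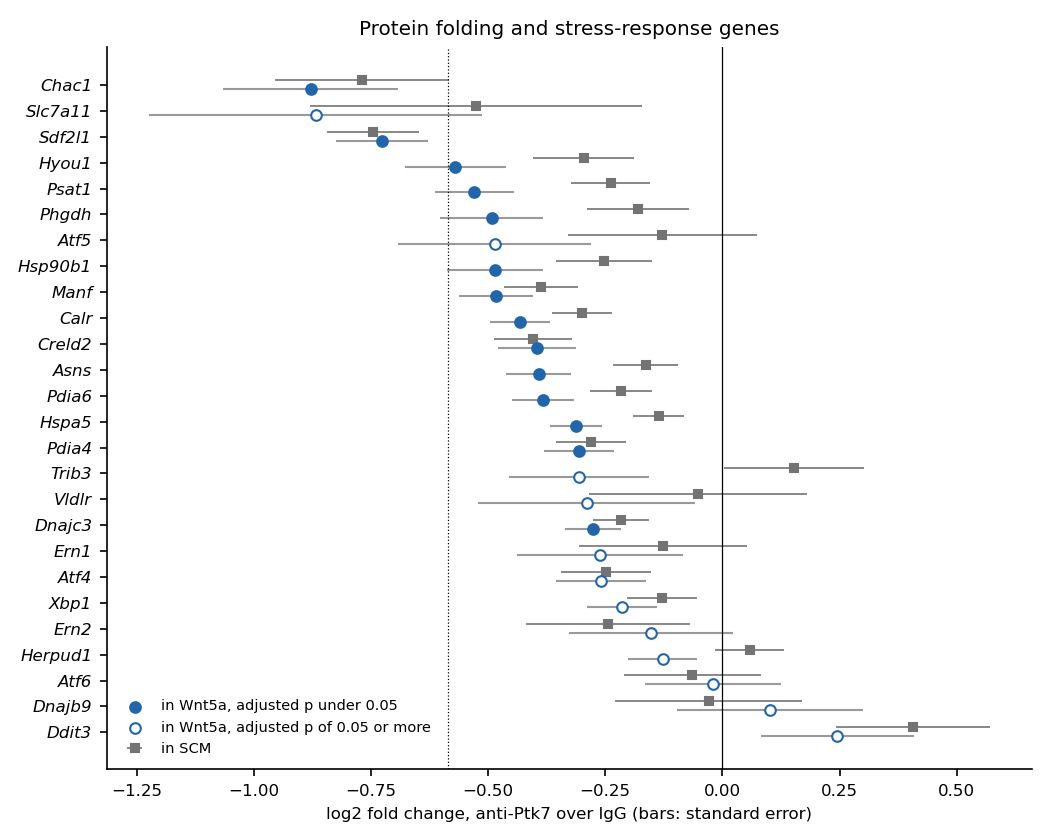
Log2 fold change of anti-Ptk7 over IgG with its standard error for the 26 tested genes of the list, in Wnt5a (blue circles, filled where the adjusted p is under 0.05) and in SCM (grey squares). All 14 filled circles lie left of 0, and the dotted line marks a fold change of 1.5, which Chac1 and Sdf2l1 pass with an adjusted p under 0.05.

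The endoplasmic reticulum stress element, CCAAT and CCACG with 9 bases of any kind between them, is the site through which ATF6 and XBP1 act with NF-Y on chaperone genes, and a search for it was added after the values were seen. Either strand of the 300-base promoters was searched. It was in 6 of 25 promoters of the list (24%) and in 17 of the 13378 promoters of all tested genes (0.127%). The 6 belong to Hspa5, Calr, Hsp90b1, Pdia6, Dnajc3 and Creld2, which all are among the 14 lower genes, while 0 of 12 promoters of the other list members held it. Of 197 promoters of all genes lower at any fold 6 held it (3.05%), the same 6, and of 176 promoters of genes higher at any fold 0 did. Many genes of the list are textbook targets of this element, so its presence there is no finding. The element is in capitals in the following 79-base windows of GRCm38 (RefSeq), read on the gene's strand, and for Calr, Creld2 and the nearer Hsp90b1 site it is the reverse complement. The windows are chr2:34771995-34772073 (plus, 65 to 47 bases before the start) for Hspa5, chr8:84847045-84847123 (minus, 162 to 144) for Calr, chr15:88819490-88819568 (plus, 126 to 108) for Creld2, chr12:17266461-17266539 (plus, 98 to 80) for Pdia6, chr14:118937797-118937875 (plus, 105 to 87) for Dnajc3 and chr10:86705503-86705581 (minus, 107 to 89) for Hsp90b1.
Hspa5: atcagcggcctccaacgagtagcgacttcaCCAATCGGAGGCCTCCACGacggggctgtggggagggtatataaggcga
Calr: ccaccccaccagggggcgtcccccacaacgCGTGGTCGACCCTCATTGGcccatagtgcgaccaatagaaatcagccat
Creld2: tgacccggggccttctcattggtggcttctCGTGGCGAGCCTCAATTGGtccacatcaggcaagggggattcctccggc
Pdia6: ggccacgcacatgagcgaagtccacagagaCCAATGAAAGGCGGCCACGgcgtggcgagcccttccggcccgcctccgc
Dnajc3: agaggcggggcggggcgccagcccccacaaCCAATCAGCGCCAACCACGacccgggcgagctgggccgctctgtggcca
Hsp90b1: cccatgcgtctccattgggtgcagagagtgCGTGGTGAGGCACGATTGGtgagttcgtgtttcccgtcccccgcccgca

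Some histone genes, grouped after the calls were known, and a highly counted non-coding RNA were also lower. No list of histone genes was tested, so the share of them that fell is not given here. The 5 called histone genes, Hist2h2ac, Hist1h1d, Hist1h2ab, Hist1h4d and Hist3h2a, had log2 fold changes between -1.34 and -0.59, and their copies are near-identical, so reads could be split between them. Their calls were lost, in that order, without 10, 10, 0, 2 and 11 of the 12 libraries. Hist1h4d, the most counted, was 46.7 to 74.7 CPM (median 68.9) with IgG and 18.8 to 54.9 CPM (median 45.7) with anti-Ptk7. Replication-dependent histone mRNAs normally lack a poly(A) tail, and the libraries were primed on poly(A) by the kit used. Among 29 tested genes of S phase and G2/M none passed the 1.5-fold cutoff, the median was -0.18, and 14 were lower and 0 higher at an unadjusted p under 0.05 (all genes tested, 7.94% and 7.11%). Without the cutoff 3 passed, Cdc20 (-0.37 ± 0.09, adjusted p = 0.0124), Cdk1 (-0.32 ± 0.08, adjusted p = 0.0193) and Mcm4 (-0.24 ± 0.06, adjusted p = 0.0338), while Mki67 had -0.13 ± 0.11 (adjusted p = 0.653). Gm26917, a lincRNA with more counts than any other called gene, was between 5259 and 6989 CPM, with a median of 5811, with IgG and between 2251 and 4746 CPM, with a median of 3133, with anti-Ptk7, without overlap, and its log2 fold change was -0.86 ± 0.15 (adjusted p = 0.00117). The share of counts in protein-coding genes was 96.4% to 96.7% with IgG and 96.6% to 97.2% with anti-Ptk7. Rpl31 (-0.82 ± 0.16, adjusted p = 0.00285) and Rpsa (-0.63 ± 0.16, adjusted p = 0.0244), ribosomal protein genes with many processed copies, were lower at levels of only 7.42 to 14.5 CPM (median 13.1) and 7.04 to 10.9 CPM (median 8.12) with IgG, so they are uncertain, and the call of Rpsa was lost without 3 libraries.

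The enzymes Dio1, Cyp1a1, Cyp27a1, Sult1c2, Hsd11b2 and Fmo4 rose. Among 36 tested xenobiotic and retinoid enzymes Dio1 rose, Ces2a fell, and the median log2 fold change was -0.05. Cyp1a1 was the only called gene among 12 tested genes of the aryl hydrocarbon receptor battery, whose median was 0.03. Dio1 (chromosome 4, 107291465 to 107307169), the deiodinase that converts thyroxine, was between 9.901 and 21.8 CPM, with a median of 17.9, with IgG and between 37.3 and 55 CPM, with a median of 48.5, with anti-Ptk7. All antibody libraries lay above all IgG libraries, and the log2 fold change was 1.53 ± 0.18 (SE, adjusted p = 9.65e-06), the smallest adjusted p of all genes. Dio1 was 4.25 to 10.3 CPM (median 7.79) in complete media. Cyp1a1 (chromosome 9, 57687928 to 57703824), the detoxifying oxygenase that the aryl hydrocarbon receptor induces, was between 46.8 and 97.6 CPM, with a median of 56.5, with IgG and between 127 and 283 CPM, with a median of 161, with anti-Ptk7, without overlap. Its log2 fold change was 1.5 ± 0.37 (adjusted p = 0.0189), and the call was lost without Wnt5a + IgG replicate 3 or Wnt5a + anti-Ptk7 replicate 5 (adjusted p up to 0.0613). Cyp27a1, the mitochondrial sterol hydroxylase of the acidic bile acid pathway, was 3.09 to 8.63 CPM (median 4.33) with IgG and 7.19 to 32 CPM (median 15.8) with anti-Ptk7, a log2 fold change of 1.74 ± 0.36 (adjusted p = 0.00554). The sulfotransferase Sult1c2 (1.30 ± 0.26, adjusted p = 0.00424), Hsd11b2, which inactivates corticosterone (0.91 ± 0.26, adjusted p = 0.0457), and the monooxygenase Fmo4 (0.70 ± 0.20, adjusted p = 0.0487) also rose, and the calls of Hsd11b2 and Fmo4 were each lost without 9 of the 12 libraries. These enzymes were put together after their calls were known, and the carboxylesterases Ces2a and Ces2g, which also act on drugs, were lower.

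The core of the site of the aryl hydrocarbon receptor, GCGTG, was in 35.9% of raised, 41.2% of lowered and 49.3% of all promoters, so it is common. The 65 bases of Cyp1a1 that hold it, at chr9:57697529-57697593 on the plus strand (GRCm38, RefSeq), are shown because Cyp1a1 is the classical target of this receptor. The core in capitals lies 54 to 50 bases before the start. It is a match of the core letters only, and whether the receptor acts there was not tested. Bases beyond the searched promoter were not looked at.
Cyp1a1: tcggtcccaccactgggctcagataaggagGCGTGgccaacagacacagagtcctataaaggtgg

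Grk3 and Arrb1, which switch off G protein-coupled receptors, rose. Grk3 (chromosome 5, 112910482 to 113015791), a kinase that phosphorylates active receptors, was between 0 and 1.97 CPM, with a median of 1.503, with IgG and between 4.44 and 7.13 CPM, with a median of 5.46, with anti-Ptk7. The groups were separate and the log2 fold change was 2.09 ± 0.50 (adjusted p = 0.0157), a call kept without each library. With voom and limma it was 2.70 with quantile scaling and 2.86 with TMM. Arrb1, beta-arrestin 1, which binds the phosphorylated receptors, was 19 to 32.3 CPM (median 25) and 27.7 to 51.9 CPM (median 41), with overlap and 0.67 ± 0.17 (adjusted p = 0.019), lost without 2 libraries. These were the 2 called genes among 10 tested genes of receptor kinases, arrestins and regulators, whose median was 0.08. Rgs2, which speeds the shutdown of G proteins, was 6.700 to 9.93 CPM (median 7.53) with IgG and 2.37 to 5.86 CPM (median 4.03) with anti-Ptk7, without overlap, and its log2 fold change of -0.93 ± 0.33 (adjusted p = 0.126) did not pass the test. Of G protein gamma subunits Gng11 rose (0.75 ± 0.20, adjusted p = 0.0301) and Gngt2 fell (-0.84 ± 0.24, adjusted p = 0.04998), both at calls that were lost without 8 and 9 of the libraries.

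Ion channels, calcium-dependent proteins and solute carriers were divided between the directions. Mcoln3, a calcium channel of endosomes and lysosomes, was between 1.18 and 6.32 CPM, with a median of 3.73, with IgG, between 10.3 and 20.8 CPM, with a median of 11.5, with anti-Ptk7 and 0 to 0.887 CPM (median 0.24) in complete media. The log2 fold change of the antibody was 1.75 ± 0.38 (adjusted p = 0.00926) with no overlap. Hcn2, a cation channel opened by hyperpolarization and cyclic AMP, was 1.42 to 3.16 CPM (median 2.23) and 3.67 to 6.22 CPM (median 4.43), also separate, with 1.11 ± 0.30 (adjusted p = 0.0396), and was lost without Wnt5a + IgG replicate 3, 4 or 5 or Wnt5a + anti-Ptk7 replicate 1, 4, 5 or 6 (adjusted p up to 0.0963). Mcoln3 and Hcn2 were the 2 called genes of 27 tested for ion transport, with a median of 0.09. Camk1, a calmodulin-dependent kinase, was 13.7 to 28.3 CPM (median 20.6) and 30.3 to 36.9 CPM (median 34.6), without overlap, and rose by 0.73 ± 0.14 (adjusted p = 0.00253). It was the only called gene of 26 tested for calcium and calmodulin signaling, the branch that noncanonical Wnt ligands can engage, and the median was 0.02. The calcium-binding S100a1 was 31.8 to 45.3 CPM (median 34.3) and 52.8 to 84.4 CPM (median 61.6) and rose by 0.89 ± 0.16 (adjusted p = 0.00181). The scramblase-family gene Ano9 (0.60 ± 0.12, adjusted p = 0.00554), the monocarboxylate carrier family member Slc16a12 (0.96 ± 0.23, adjusted p = 0.0153) and the creatine transporter Slc6a8 (0.64 ± 0.17, adjusted p = 0.0319) rose as well, and Fxyd3, a regulator of the sodium pump, fell (-0.61 ± 0.16, adjusted p = 0.0345). The calls of Ano9, Slc6a8 and Fxyd3 were lost without 5, 6 and 8 libraries.

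Called genes with immune roles, grouped after the calls were known, were 5 raised and 2 lowered. Ccl20, the chemokine that draws CCR6-bearing lymphocytes and dendritic cells, was 10.3 to 23.1 CPM (median 12.3) with IgG and 17.1 to 34.3 CPM (median 28.2) with anti-Ptk7, with overlap and a log2 fold change of 1.00 ± 0.27 (adjusted p = 0.0323). Tnfsf13b (BAFF), a survival factor of B cells, was 1.64 to 5.25 CPM (median 2.12) and 4.48 to 10.9 CPM (median 6.66), with 1.35 ± 0.35 (adjusted p = 0.0253). These calls were lost without 8 and 6 of the 12 libraries, and they were the 2 called genes among 21 tested epithelial chemokines and cytokines, whose median was 0.05. Sectm1b, of the Sectm1 family of secreted and membrane proteins, was 15.5 to 25.1 CPM (median 19.9) and 34.5 to 50.9 CPM (median 41.4), without overlap, and rose by 1.07 ± 0.23 (adjusted p = 0.00649). Irf1, a transcription factor induced by interferon, rose by 0.69 ± 0.18 (adjusted p = 0.03), a call lost without 7 libraries, and was the only called gene among 30 tested interferon and antigen presentation genes, of which 5 were higher and 0 lower at an unadjusted p under 0.05 (all genes tested, 7.11% and 7.94%) and whose median was 0.21. Fcgrt, the neonatal Fc receptor, which carries IgG across epithelia, was 12.1 to 19.9 CPM (median 14.4) with IgG and 16.8 to 42.3 CPM (median 25.5) with anti-Ptk7, a log2 fold change of 0.76 ± 0.18 (adjusted p = 0.0127), and all 12 libraries had received an immunoglobulin. It was the only called gene of 8 tested Fc receptors and complement genes, with a median of 0.30. Oas1f, of the oligoadenylate synthetase family, fell (-1.77 ± 0.50, adjusted p = 0.0491), as did Slamf9 (-0.84 ± 0.20, adjusted p = 0.0178). The calls of Fcgrt, Oas1f and Slamf9 were lost without 1, 10 and 1 of the libraries.

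Genes of the primary cilium and the centrosome gave 4 raised genes. Ift122, a subunit of the retrograde intraflagellar transport complex, was between 6.36 and 11.4 CPM, with a median of 10.2, with IgG and between 14.9 and 26.9 CPM, with a median of 17.3, with anti-Ptk7, without overlap. Its log2 fold change was 0.97 ± 0.26 (adjusted p = 0.0362), lost without Wnt5a + IgG replicate 2, 4 or 6 or Wnt5a + anti-Ptk7 replicate 3 or 4 (adjusted p up to 0.104). Dync2li1, the light intermediate chain of the retrograde motor (1.08 ± 0.27, adjusted p = 0.019), Arl3, a GTPase that releases ciliary cargo (0.62 ± 0.17, adjusted p = 0.037), and Cep57l1, a centrosomal protein (0.63 ± 0.15, adjusted p = 0.0152), were higher too, with calls lost without 4, 9 and 3 libraries. No list of cilium genes was tested, and these functions were grouped after the calls were known.

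**Figure D4:**
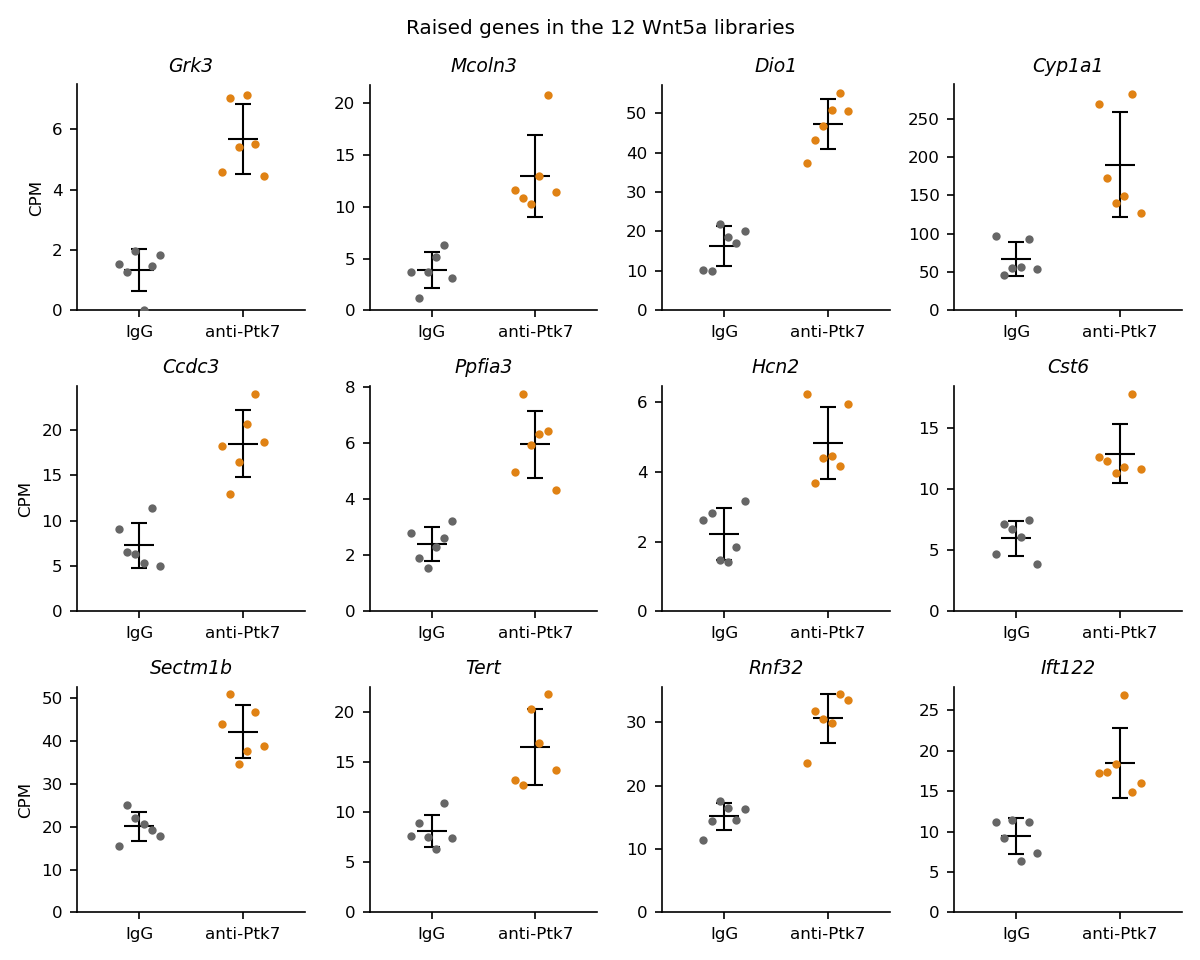
CPM in each of the 12 Wnt5a libraries (points, in order of replicate number from left to right) with the mean and SD of 6 libraries, for the 12 protein-coding raised genes with the largest change among those whose groups did not overlap and whose mean log2 CPM was over 1. Wnt5a + anti-Ptk7 replicate 5 is the highest antibody library for Mcoln3, Dio1, Cyp1a1, Ccdc3, Cst6, Tert and Rnf32, and each axis starts at 0.

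Other raised genes with separate groups included Tert, Rnf32, Ccdc3 and Ppfia3. Tert, the catalytic subunit of telomerase, was between 6.36 and 10.9 CPM, with a median of 7.55, with IgG and between 12.7 and 21.8 CPM, with a median of 15.6, with anti-Ptk7, and its log2 fold change was 1.02 ± 0.21 (adjusted p = 0.0062). Rnf32, a RING-finger protein, was 11.5 to 17.7 CPM (median 15.5) and 23.5 to 34.5 CPM (median 31.2), a log2 fold change of 1.02 ± 0.13 (adjusted p = 2.28e-05). Ccdc3, a secreted coiled-coil protein, was 4.98 to 11.4 CPM (median 6.46) and 13 to 24 CPM (median 18.5), a log2 fold change of 1.35 ± 0.30 (adjusted p = 0.00926). Ppfia3, a liprin scaffold, was 1.56 to 3.23 CPM (median 2.45) and 4.31 to 7.73 CPM (median 6.11), a log2 fold change of 1.31 ± 0.24 (adjusted p = 0.00181), and Cst6 was 3.86 to 7.47 CPM (median 6.43) and 11.3 to 17.8 CPM (median 12.1). These 5 genes kept their calls without each library. The endocytic receptor Lrp1 (1.14 ± 0.22, adjusted p = 0.00279), the receptor tyrosine kinase ligand Gas6 (0.79 ± 0.20, adjusted p = 0.0202), the mRNA-binding protein Igf2bp3 (1.44 ± 0.34, adjusted p = 0.0152) and the kinase Stk38, a relative of the LATS kinases of the Hippo pathway (0.59 ± 0.09, adjusted p = 0.000155), rose too. The calls of Gas6, Igf2bp3 and Stk38 were lost without 1, 1 and 5 libraries, that of Stk38 by the fold cutoff alone (adjusted p up to 0.001). Stk38 was 93 to 122 CPM (median 105) with IgG and 149 to 169.7 CPM (median 156) with anti-Ptk7, without overlap.

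In 3 raised genes every IgG library was at 0 counts. Plpp7 held 5 to 28 counts (median 8) in the anti-Ptk7 libraries, Adam11 2 to 29 (median 4.5) and Tgfbr3, the TGF-beta coreceptor betaglycan, 0 to 13 (median 6). Against a floor of 3 counts over the 6 IgG libraries these were at least 23.6-fold, 23.3-fold and 15.03-fold higher. In complete media the levels were 0 to 0.835 CPM (median 0.451), 0 to 1.22 CPM (median 0.345) and 0.512 to 3.34 CPM (median 1.61). Pcdhgb4, a clustered protocadherin, held 15 counts with IgG and 138 with anti-Ptk7 in all, and its log2 fold change was 3.38 ± 0.93 (adjusted p = 0.0407). The call of Plpp7 was kept without each library, and those of Adam11, Tgfbr3 and Pcdhgb4 were lost without 9, 11 and 9. In SCM the antibody gave log2 fold changes of -0.34 ± 0.89, 0.23 ± 1.15 and -0.72 ± 1.01 for the first 3. The summed fibroblast, endothelial and neural markers given above also had higher medians with anti-Ptk7 than with IgG (3.18 against 2.14, 1.31 against 0.32 and 2.73 against 1.69 CPM), and their part in these low-count changes was not tested.

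The lists for cell types and pathways that the antibody left without a called gene were 18 of 35. The stem cell signature of 7 genes had a median of -0.11, with -0.21 for Lgr5 and -0.37 for Olfm4, and 0 members at an unadjusted p under 0.05. Canonical Wnt targets (17 tested) had a median of 0.10 and Axin2 a log2 fold change of -0.24 ± 0.17. Goblet (17 tested), tuft (11) and microfold cell genes (7) had medians of -0.01, 0.23 and 0.14. The AP-1 and immediate early genes (30 tested) had a median of -0.13, the actomyosin and cytoskeleton genes (31) -0.04, and the feedback genes of NF-kappaB (15) -0.03. Medians for p53 and senescence genes (20 tested), EGFR ligands and receptors (14), BMP and TGF-beta response (22), Notch (16), cholesterol and fatty acid synthesis (32), hypoxia and glycolysis (28), identity transcription factors (23) and the circadian clock (19) lay between -0.10 and 0.09. A list without a called gene does not show that its genes did not change.

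The same antibody in SCM moved most of these genes the same way. In SCM it raised 90 genes (0.581%) and lowered 100 (0.645%) of those tested, in libraries that share none with the Wnt5a comparison. Of the 70 genes raised in Wnt5a, 66 had a log2 fold change above 0 in SCM and 25 were called higher there, which is 35.7% of the 70 and 27.8% of the 90. Of the 67 lowered genes all had a log2 fold change below 0 in SCM and 30 were called lower, which is 44.8% of the 67 and 30% of the 100. None was called in the opposite direction. Over all genes tested 67.9% had the same direction in both media, and Pearson's r across genes was 0.40, given as a description because genes are not independent. The medians in SCM were 0.65 for the raised and -0.73 for the lowered genes, smaller than the 0.91 and -0.86 in Wnt5a where they were chosen.

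Genes called in both media included Ly6a, whose log2 fold change in SCM was -1.73 ± 0.30 (adjusted p = 0.000967), Ly6c1 (-4.16 ± 0.64, adjusted p = 0.000207), Serpinb9b (-2.68 ± 0.58, adjusted p = 0.00766), Dmbt1 (-2.78 ± 0.47, adjusted p = 0.000902), Wfdc2 (-1.59 ± 0.37, adjusted p = 0.0153) and Ccn2 (-2.50 ± 0.52, adjusted p = 0.00554). The raised genes called in both included Dio1 (1.19 ± 0.18, adjusted p = 0.000207), Cyp1a1 (1.39 ± 0.37, adjusted p = 0.0323), Ccdc3 (1.76 ± 0.30, adjusted p = 0.000997), Hcn2 (1.59 ± 0.30, adjusted p = 0.00284), Rnf32 (0.82 ± 0.13, adjusted p = 0.000311) and Ccl20 (1.51 ± 0.27, adjusted p = 0.00156). Grk3 (1.14 ± 0.48, adjusted p = 0.208), Mcoln3 (1.15 ± 0.38, adjusted p = 0.0976), Vgll3 (-0.80 ± 0.39, adjusted p = 0.289), Tgm1 (-1.48 ± 0.58, adjusted p = 0.167) and Ift122 (0.42 ± 0.26, adjusted p = 0.441) were not called in SCM. The folding genes had a median of -0.22 in SCM. The exceptions in direction were Plpp7, Tgfbr3, AA467197 and Limd2, named after their values were seen.

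The difference between the antibody's effects in Wnt5a and in SCM was tested directly. No gene passed at an adjusted p under 0.05 in edgeR's test of the interaction, and 602 of 15497 were under 0.05 without adjustment. Voom with limma and DESeq2 also called 0, but a fit with a replicate block did call some genes, as given in the closing section. Among the 137 called genes, 15 were under 0.05 unadjusted, with Slc7a5 (unadjusted p = 0.000516) and Plpp7 (unadjusted p = 0.000652) the smallest. Slc7a5 had a log2 fold change of -0.72 ± 0.11 in Wnt5a and -0.15 ± 0.11 in SCM. A difference that did not pass does not show that the effects were equal.

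**Figure D5:**
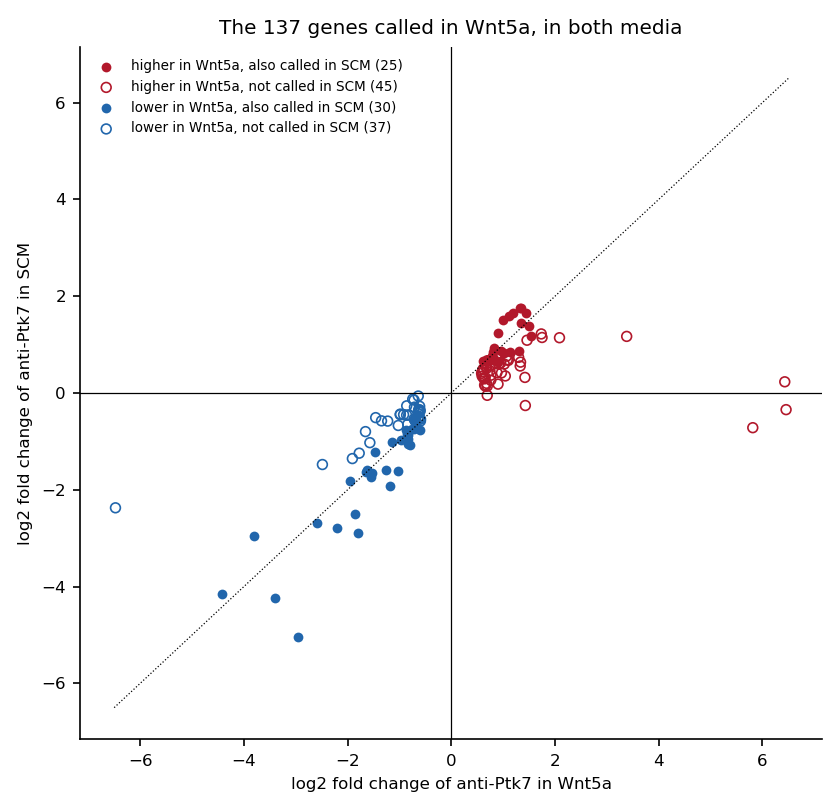
Log2 fold change of anti-Ptk7 over IgG in Wnt5a (horizontal) and in SCM (vertical) for the 137 genes called in Wnt5a, filled where the gene was also called in SCM (25 raised, 30 lowered) and open where it was not. The dotted line marks equal effects, and 4 raised genes lie below 0 on the vertical axis.

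The comparison of Wnt5a + IgG with complete media + IgG uses the same IgG libraries as the antibody comparison, so the values stand side by side without a test of their relation. For the lowered genes given in full, Serpinb9b, Tgm1, Dmbt1, Klrg2, Clic3, Vgll3, Ecscr, Wfdc2, Ly6a, Lor, Crip2 and Lgals1 the log2 fold changes of Wnt5a over complete media were, in that order, 1.96, 1.57, -0.19, 0.57, 2.57, 2.06, 1.61, 2.75, 0.87, 1.63, -0.19 and 0.88. For the raised genes given in full, Grk3, Mcoln3, Dio1, Cyp1a1, Ccdc3, Ppfia3, Hcn2, Cst6, Sectm1b, Tert, Rnf32 and Ift122 the log2 fold changes of Wnt5a over complete media were, in that order, -0.17, 3.63, 1.08, -0.38, 1.55, -0.30, 0.13, 0.82, 0.42, 0.07, -0.25 and -0.34. All 12 lowered genes have a negative and all 12 raised genes a positive change with the antibody, since that chose them. Among the other raised genes described above, Tfpi2 had -0.70 (adjusted p = 0.00844) and Fcgrt 2.18 (adjusted p = 6.7e-10) with Wnt5a, and among the lowered genes Ly6c1 had 0.02 (adjusted p = 0.982), Akp3 -0.67 (adjusted p = 0.0176) and Alpi 1.02 (adjusted p = 2.56e-05).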

How the data were processed

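Count tables of 36 libraries were used. The authors made cDNA from 2 ng of total RNA with a Smart-Seq v4 kit, aligned reads with GSNAP to NCBI Build 38 through HTSeqGenie, counted reads within coding sequences and deposited whole-number counts per gene without normalization. Strandedness and gene annotation are not given in the sources used here. The kit has no molecular identifiers, so amplified copies were not collapsed. A summary table of the series held the same counts and was not used.

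Genes were kept with filterByExpr, libraries were scaled by TMM (factors 0.908 to 1.018 in the 12 Wnt5a libraries) and edgeR 4.0.16 fitted its quasi-likelihood model to all 36 libraries with 6 condition means, without a replicate block, as the study's methods name none. CPM use the TMM-scaled library sizes, log2 CPM a prior count of 2, and SE is that of the log2 fold change. A gene was called at a Benjamini-Hochberg adjusted p under 0.05 over all 15497 genes and a fold change over 1.5, the study's cutoffs; the study used voom with limma, tried here as an alternative (limma 3.58.1, DESeq2 1.42.0, R 4.3.3). Tested on simulated data with 200 of 15239 genes changed in Wnt5a + anti-Ptk7, the test recovered 87 of 100 genes at a log2 change of 1 and 96 of 100 at 2, with 5 false calls. The changed genes were drawn only from genes above a minimum mean count, and each count was drawn independently. The simulation therefore does not cover changes in genes with few counts or libraries in which many genes deviate together. Over the 30 pairs of replicates, chi-square divided by the number of genes was 7.81 to 81, so no library counted as a copy of another.

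The comparison, the 35 gene lists and the rule for naming genes were chosen with earlier results of these data known. Named in full are Ptk7 and the 12 raised and 12 lowered protein-coding called genes with the largest change, separate groups and a mean log2 CPM over 1; called list members and other called genes are examples of function. Promoters are from RefSeq (GRCm38.p6).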

Additional observations from a re-analysis of the deposited data

Results flagged for a closer look

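In each group of 6 Wnt5a libraries, the highest and the lowest CPM of Ptk7 and of the 12 raised and 12 lowered genes given in full were compared with the nearest other library by Dixon's ratio. A library stood apart in 11 of 50 groups, where chance gives about 1 in 20. The genes share libraries, so the flags are not independent.

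In Wnt5a + IgG replicate 1 the highest value stood apart for 6 genes. It held 54.65 CPM of Serpinb9b (next highest 18.98), 21.69 of Klrg2 (7.971), 15.33 of Clic3 (9.627), 325.9 of Ly6a (248.4), 15.71 of Lor (9.827) and 28.43 of Ptk7 (20.26). Wnt5a + anti-Ptk7 replicate 1 was apart for Ly6a, at 129 CPM against a next highest of 76.45. Without the IgG library, the calls of Serpinb9b, Klrg2 and Ly6a were kept and those of Clic3 (adjusted p = 0.079) and Lor (adjusted p = 0.0903) were lost.

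Wnt5a + anti-Ptk7 replicate 5 was apart for Mcoln3 (20.85 CPM, next highest 12.96) and Cst6 (17.81 CPM, next highest 12.63), and Wnt5a + anti-Ptk7 replicate 4 for Ift122 (26.94 CPM, next highest 18.35). Wnt5a + IgG replicate 4 was the lowest for Grk3, at 0 CPM, with 1.273 CPM in the next library. Without the library that stood apart, the calls of Mcoln3, Cst6 and Grk3 were kept and that of Ift122 was lost (adjusted p = 0.104).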

How the results depend on the processing

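The 70 raised and 67 lowered genes became 106 and 90 with DESeq2, 45 and 56 without a filter on low counts, 162 and 236 without the fold cutoff, and 1 and 1 (Dio1 and Ly6c1) with glmTreat, which tests against the fold itself. Other scalings, both voom fits, a filter of 10 counts in each library and a fit of only the 12 libraries gave 52 to 101 raised and 51 to 97 lowered genes. Leaving out 1 library in turn gave 40 to 77 raised and 41 to 80 lowered genes. The lowest counts were those without Wnt5a + anti-Ptk7 replicate 5, the only library whose removal moved either count by over 1.5 times. Of the 137 genes, 122 stayed called with voom and quantile scaling, 131 with DESeq2, 97 without a filter and 77 with only the 12 libraries (6 not tested), and none changed sign in any of these fits. All 24 genes given in full stayed called with voom, DESeq2, the other scalings and only the 12 libraries, 21 without a filter and 19 under the filter of 10 counts, which removed the other 5 from the test.

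In a fit with a replicate block 131 genes rose and 124 fell, or 178 and 164 with only the 12 libraries, and 3 genes (Clu, Ctrb1 and Glipr1, named after their values were seen) differed between Wnt5a and SCM; the other alternatives that held the SCM libraries gave 0 such genes. Of the 137 genes 136 stayed called with the block. The number is not known to mark a shared animal or day. Same-numbered libraries of the treatments deviated together with correlations over 0.1 in 4 of 6 pairs (mean 0.156, against -0.0287 for different numbers), and 3 of 6 libraries correlated best with their own number. The cause of these changes was not tested. A group at 0 counts was given a floor of 3 counts, which covers counting error only.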
